A study of Mus musculus with 11 samples.

Results

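Rab proteins are small GTPases that mark the membranes of the secretory and endocytic pathways. RNA of the genes that encode them was compared in 266-6 cells, a mouse pancreatic acinar line that makes digestive enzymes, after knockdown of Arid1a and after EGF. A gene was taken as a Rab gene where its symbol was Rab with a number and at most a letter and a further digit, and where its mean level over the 11 libraries was at least 1 CPM (a gene's share of the counted reads scaled to a common total). Of 57 symbols of that form among 23284 listed, 52 met the level, and all 52 had enough reads to be tested. Just inside the limit lay Rab40b at 1.02 CPM and Rab39 at 1.44 CPM. Just outside it lay Rab44 at 0.711 CPM and Rab25 at 0.26 CPM, and Rab9b, Rab19 and Rab38 had 12, 2 and 0 reads over all libraries.

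All cells were of the same line. They were transfected for 48 h with siRNAs against Arid1a at 25 nM or with a non-targeting control siRNA, for which no concentration is recorded, starved of serum overnight, and treated for 8 h with EGF at 40 ng/ml or with its carrier, 0.1% BSA. The groups were Arid1a siRNAs and EGF (n = 3), Arid1a siRNAs alone (n = 3), control siRNA and EGF (n = 3) and control siRNA alone (n = 2), where "alone" means with the BSA carrier. The libraries labelled as replicates are not said to be separate cultures, so the p-values here reflect only the scatter among these libraries, and that scatter may be technical. The design is a transient and partial knockdown in a single transformed line, and it asks how loss of the chromatin remodelling subunit ARID1A and EGF receptor signalling act on acinar cells.

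A Rab protein cycles between a GDP-bound form, held in the cytosol by a GDP dissociation inhibitor, and a GTP-bound form on the membrane. Guanine nucleotide exchange factors (GEFs) switch it on, GTPase-activating proteins (GAPs) switch it off, and in its active form it recruits effectors such as tethers, motors and fusion factors. Acinar cells store digestive enzymes in zymogen granules, and Rab3d, Rab27b, Rab27a and Rab26 are the members best known on such granules or in their formation and release.

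Arid1a itself had 145, 122 and 152 CPM with Arid1a siRNAs and EGF, against 308, 263 and 300.2 CPM with control siRNA and EGF. It had 151, 157 and 127 CPM with Arid1a siRNAs alone, against 292 and 399.9 CPM with control siRNA alone. Here and below CPM are scaled by TMM factors, and values within a group follow the replicate numbers. Depth was 10279763 to 19773007 counted reads per library, and the 52 Rab genes took 0.270 ± 0.00320%, 0.276 ± 0.00320%, 0.275 ± 0.00208% and 0.294 ± 0.00976% of the reads (SD, in the order of the groups above). Of 22 acinar markers, 21 were detected and Amy2a5 was at 0, and 5 of the 22, Amy2a5 among them, averaged under 1 CPM. Their summed level was 15056 to 20774 CPM over all libraries, most of it Ctrb1 (group means of 11901 to 13371 CPM). Markers of immune and endothelial cells summed to 6.27 to 12.3 CPM, with Cd3e and Cdh5 at 0. Fibroblast markers summed to 282 to 336 CPM, nearly all of it Pdgfrb (group means of 271 to 310.4 CPM), with Lum at 0. In a bulk library, fewer cells of a type and less RNA per cell cannot be told apart.

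Levels were compared between genes with the authors' FPKM values, which are per length of transcript, over the 9 libraries other than control siRNA alone. The 52 genes had a median of 15.8 FPKM, with 31 over 10 FPKM and 5 under 1 FPKM. The 3 highest were Rab1b at 136 FPKM (range 118 to 165), which carries traffic between endoplasmic reticulum and Golgi, Rab5c at 129 FPKM (123 to 134) on early endosomes, and Rab7 at 107 FPKM (91.9 to 117) on late endosomes. The ranges of Rab1b and Rab5c overlapped, and so the order of these neighbours was not resolved. The 3 lowest were Rab27b at 0.297 FPKM, Rab39 at 0.438 FPKM and Rab40b at 0.545 FPKM. Among the granule Rabs, Rab26 was highest at 19.9 FPKM (17.0 to 23.1), followed by Rab3d at 10.2 FPKM (8.11 to 11.6) and Rab27a at 8.17 FPKM (4.36 to 11.8), whose ranges overlapped. The Rab3-type genes had 17.0 FPKM for Rab3a, 3.51 FPKM for Rab3c, 1.14 FPKM for Rab37 and 0.968 FPKM for Rab3b.

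**Figure D1:**
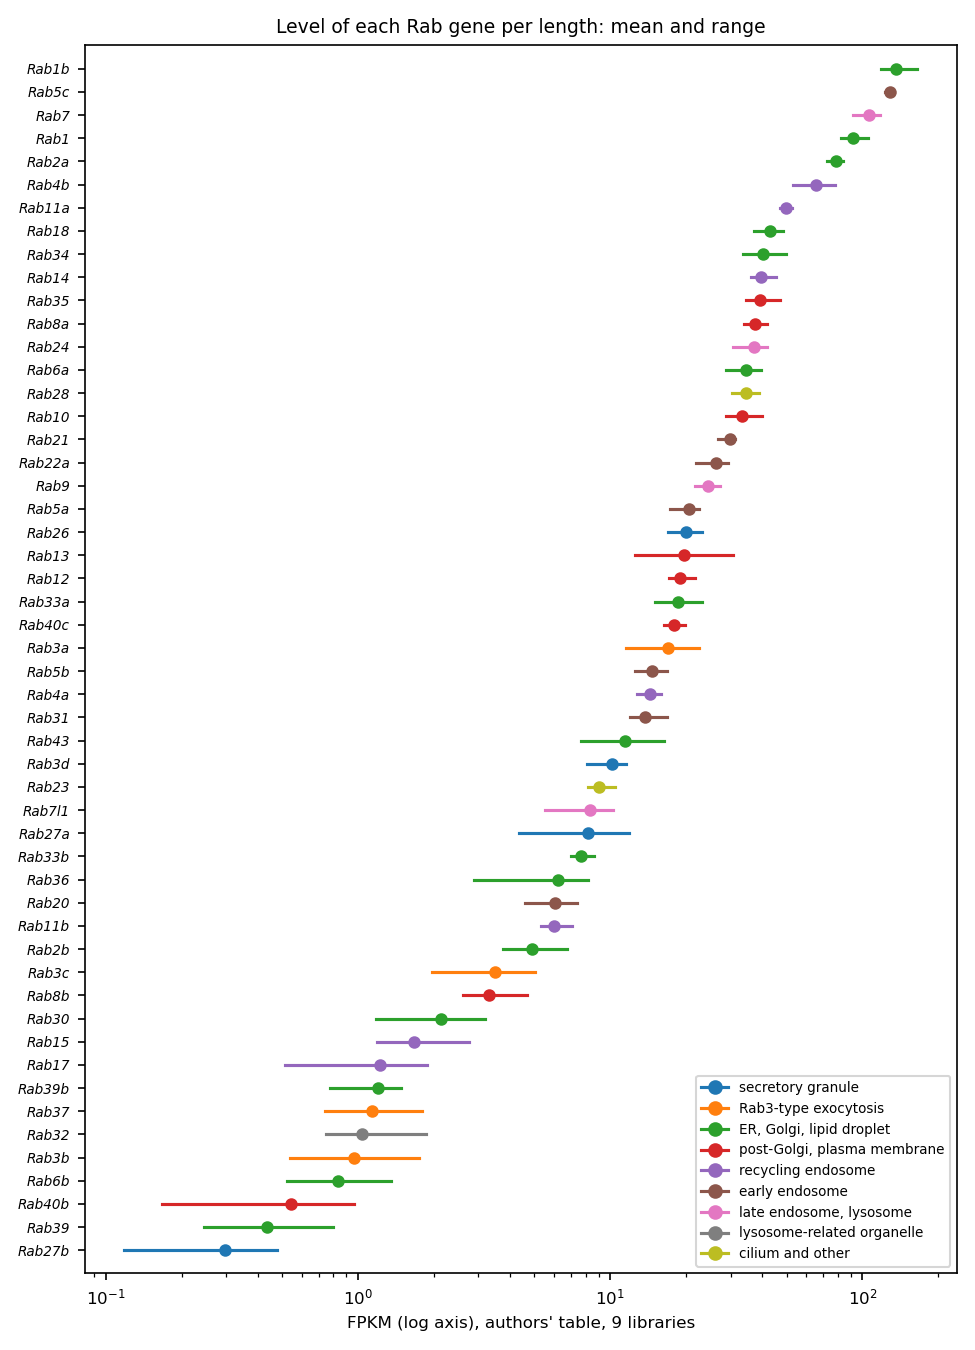
Level of each of the 52 Rab genes in the authors' FPKM (log axis), as the mean (point) and range (line) over 9 libraries, coloured by role. The genes run between 0.297 FPKM for Rab27b and 136 FPKM for Rab1b, with Rab26, Rab3d and Rab27a in the middle and Rab27b last.

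Knockdown of Arid1a came with changes in a share of Rab genes near that of all genes. In EGF-treated cells 14 Rab genes were higher and 13 lower with Arid1a siRNAs than with control siRNA at an adjusted p under 0.05 (edgeR quasi-likelihood test), which is 51.9% of 52. Of the 13343 genes tested 46.9% were called, 23.7% higher and 23.2% lower. Without EGF 10 were higher and 13 lower, 44.2% of 52, against 38.9% of all genes, 18.8% higher and 20.1% lower. Changes past 1.5-fold were called for 8 Rab genes with EGF (15.4%, against 16% of all genes) and for 9 without it (17.3%, against 13.5%). The median log2 change of the 52 genes was -0.062 with EGF and -0.091 without, against 0.00041 and -0.0087 for all genes tested. The libraries of the groups compared did not overlap for 32 of the 52 with EGF and 34 without. Among the 13343 genes tested this held for 7682 and 7305, so with 3 or fewer libraries per group a lack of overlap was common.

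Fewer Rab genes were called for EGF. With control siRNA 4 Rab genes were higher and 9 lower after EGF, 25% of 52, against 35.6% of all genes tested, 16.8% higher and 18.8% lower. With Arid1a siRNAs 3 were higher and 5 lower, 15.4% of 52, against 23.4% of all genes, 13% higher and 10.4% lower. The median log2 change of the 52 genes with EGF was -0.0013 with Arid1a siRNAs and -0.11 with control siRNA, against -0.0085 and -0.028 for all genes. Libraries did not overlap for 16 and 32 of the 52, against 5169 and 7411 of the 13343 genes tested. Over the 4 comparisons 15 Rab genes were called in none, 12 in 1, 19 in 2, 3 in 3 and 3 in 4. Rab27a, Rab22a and Rab13 were the Rab genes called in all 4. All genes tested were not counted in this way, so it cannot be said whether these numbers are unusual. In neither comparison for Arid1a siRNAs were 21 of the 52 called, against 6127 of the 13343 genes tested. For EGF it was 38 of the 52, against 8150.

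**Figure D2:**
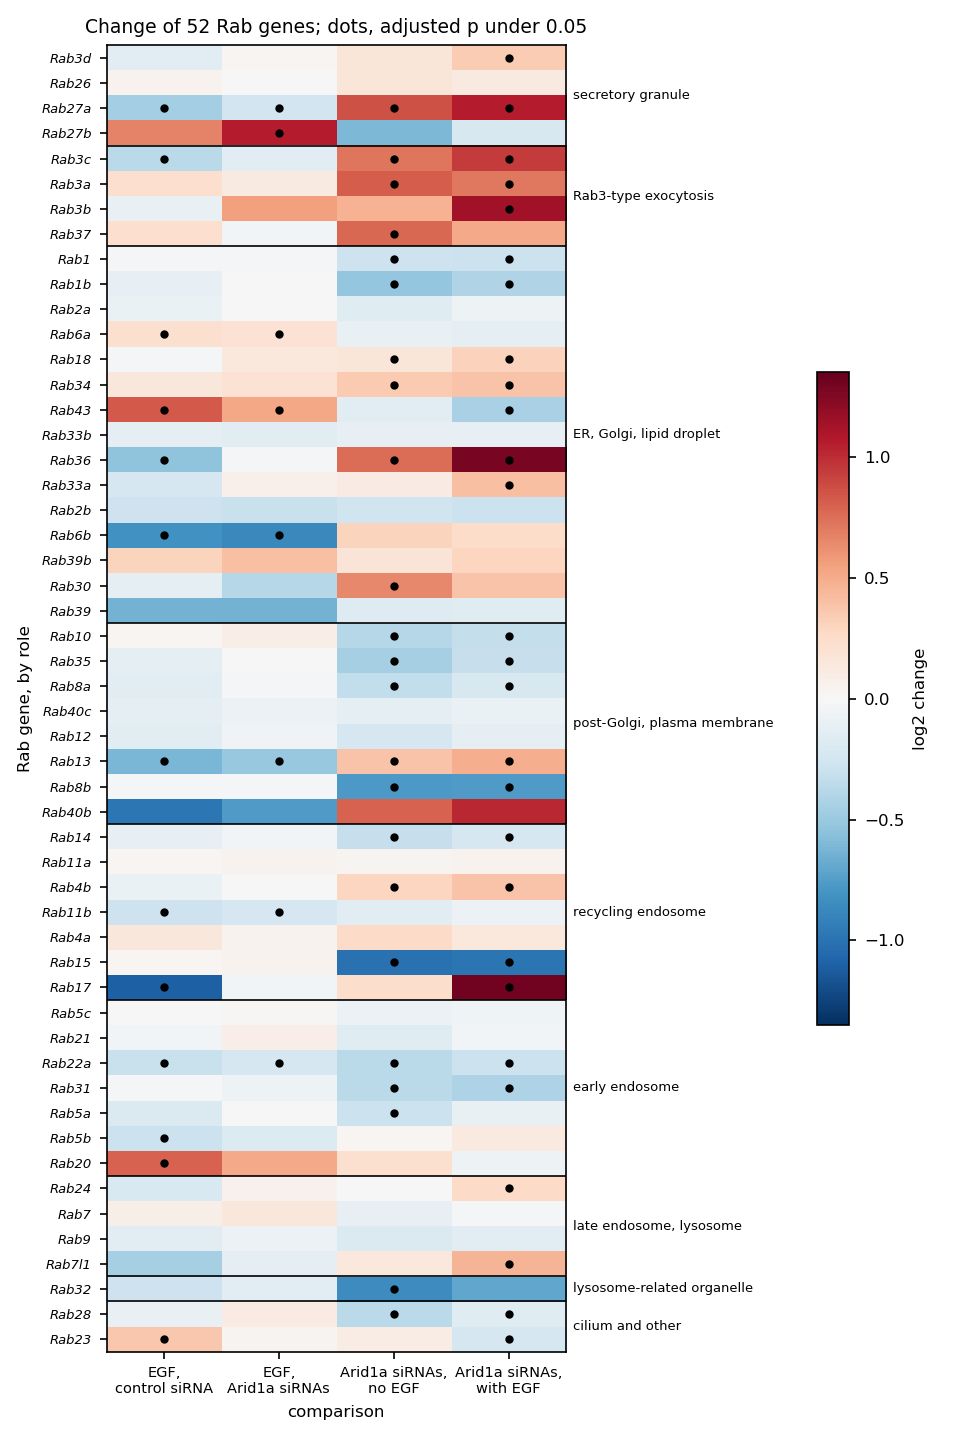
Fitted log2 change of the 52 Rab genes (rows, by role) in the 4 comparisons (columns), from red for higher to blue for lower, with a dot where the adjusted p was under 0.05. The granule and Rab3-type rows at the top carry 5 dots for Arid1a siRNAs with EGF and 4 without, all on red cells, while Rab1, Rab1b, Rab10, Rab35, Rab8a, Rab8b, Rab14 and Rab15 carry dots on blue cells in both.

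Among the granule Rabs, Rab27a changed in every comparison. Its protein brings granules and lysosome-related organelles to the plasma membrane through effectors of the synaptotagmin-like family. Rab27a had 29.8, 27.9 and 26.7 CPM with Arid1a siRNAs and EGF, against 13.8, 13.5 and 13.4 CPM with control siRNA and EGF. It had 36.5, 32.4 and 32.6 CPM with Arid1a siRNAs alone, against 18.3 and 19.1 CPM with control siRNA alone. The lowest library with Arid1a siRNAs lay above the highest with control siRNA. The rise was 2.08-fold with EGF (log2 change 1.05 ± 0.084 SE, adjusted p = 2.12e-07) and 1.81-fold without it (log2 change 0.86 ± 0.090 SE, adjusted p = 5.47e-06). EGF lowered Rab27a with control siRNA (log2 change -0.46 ± 0.094 SE, adjusted p = 0.00155) and with Arid1a siRNAs (log2 change -0.26 ± 0.078 SE, adjusted p = 0.0253), and in neither pair did the libraries overlap. The annotation places the pseudogene Gm27186 over 149 exonic bases of Rab27a. The call for EGF with Arid1a siRNAs was lost without any 1 of replicates 2 and 3 of Arid1a siRNAs and EGF and replicate 1 of Arid1a siRNAs alone (log2 change -0.21 to -0.26, adjusted p = 0.0645 to 0.0996). Its response to EGF did not differ by test between the siRNAs (interaction log2 change 0.20 ± 0.12 SE, adjusted p = 0.694).

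Rab3d, the Rab long known on zymogen granules, rose with Arid1a siRNAs in EGF-treated cells. It had 47.1, 42.6 and 47.1 CPM with Arid1a siRNAs and EGF, against 35.2, 33.7 and 39.2 CPM with control siRNA and EGF (log2 change 0.34 ± 0.082 SE, adjusted p = 0.00323), and these libraries did not overlap. With Arid1a siRNAs alone it had 40.5, 45.3 and 48.1 CPM, against 39.6 and 40.3 CPM with control siRNA alone (log2 change 0.16 ± 0.090 SE, adjusted p = 0.176). The difference between these changes did not pass the test (interaction log2 change 0.18 ± 0.12 SE, adjusted p = 0.733). EGF gave log2 changes of 0.029 ± 0.081 SE with Arid1a siRNAs and -0.15 ± 0.090 SE with control siRNA, neither past the threshold.

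Rab26, which acts in granule maturation in secretory cells, passed the test in no comparison. It had 30.2, 29.6 and 30.4 CPM with Arid1a siRNAs and EGF, 25.8, 29.9 and 34.5 CPM with Arid1a siRNAs alone, 30.1, 25.2 and 28.1 CPM with control siRNA and EGF and 26.3 and 27.4 CPM with control siRNA alone. The libraries overlapped in each of the 4 comparisons, and the fitted log2 changes were 0.12 ± 0.098 SE and 0.16 ± 0.11 SE for Arid1a siRNAs with and without EGF. Reads of Rab26 are uncertain, since it shares 173 exonic bases with Traf7 on the same strand. Rab27b, the close relative of Rab27a found on zymogen granules, was near the limit of counting, with 10 to 52 reads per library. It had 2.75, 2.12 and 2.84 CPM with Arid1a siRNAs and EGF, against 1.59, 1.23 and 0.86999 CPM with Arid1a siRNAs alone, and rose with EGF in these cells (log2 change 1.06 ± 0.28 SE, adjusted p = 0.0136). That call was lost without any 1 of replicate 3 of Arid1a siRNAs and EGF and replicates 2 and 3 of Arid1a siRNAs alone (log2 change 0.89 to 1.06, adjusted p = 0.0504 to 0.0518). Under control siRNA it had 3.77, 2.097 and 3.15 CPM with EGF, against 1.82 and 1.93 CPM without (log2 change 0.66 ± 0.27 SE, adjusted p = 0.065), a difference that passed without replicate 2 of control siRNA and EGF (log2 change 0.89, adjusted p = 0.0141).

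**Figure D3:**
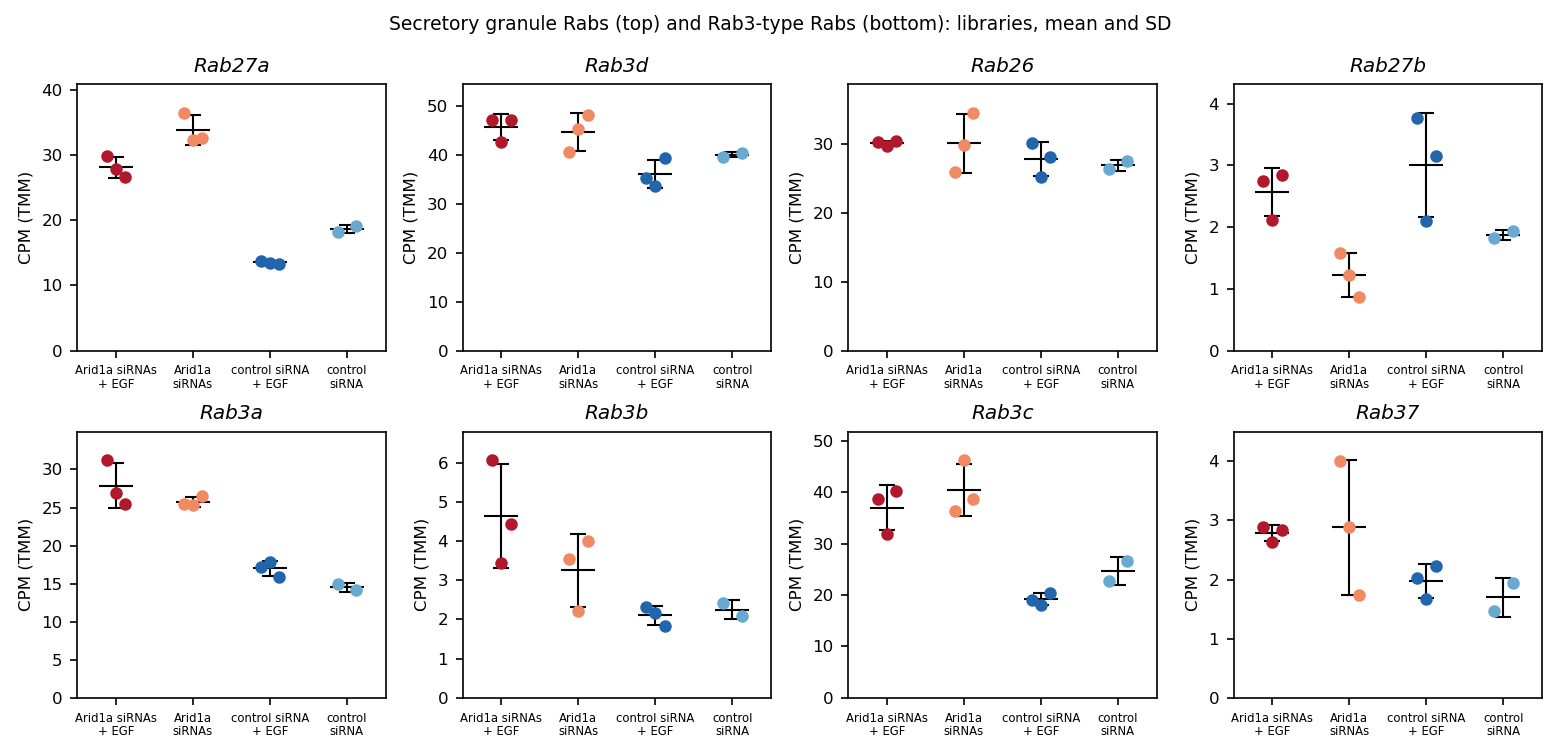
Level in CPM (linear axes that start at 0) of the 4 secretory granule Rabs (top) and the 4 Rab3-type Rabs (bottom), with a point per library and the mean and SD of each group. Rab27a, Rab3a and Rab3c sit higher in all 6 libraries with Arid1a siRNAs than in any of the 5 with control siRNA, while the Rab26 libraries overlap in each of the 4 comparisons.

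The acinar marker list moved in the same comparisons, and its part in the granule Rab changes was not tested. Of its 18 tested members, 8 were higher and 4 lower with Arid1a siRNAs in EGF-treated cells, and 7 were higher and 5 lower without EGF. That is 66.7% called in each, against 46.9% of all genes tested with EGF and 38.9% without it. EGF came with 2 higher and 7 lower with Arid1a siRNAs (50% called, against 23.4% of all genes), and with 3 higher and 10 lower with control siRNA (72.2%, against 35.6%). Its summed level was 16263 to 18062 CPM with Arid1a siRNAs and EGF, 17355 to 20774 CPM with Arid1a siRNAs alone, 15056 to 16333 CPM with control siRNA and EGF and 17153 to 19262 CPM with control siRNA alone. The islet marker list summed to 796 to 841, 627 to 768, 1116 to 1161 and 702 to 753 CPM in the same order. Nearly all of that sum was Chga, a granule protein of endocrine cells. Ins1, Ins2 and Sst were at 0. Its 3 tested genes (Chga, Neurod1 and Ppy) were all lower with Arid1a siRNAs in EGF-treated cells and all higher with EGF under control siRNA, while 2 were higher with EGF under Arid1a siRNAs and 0 were called for Arid1a siRNAs without EGF. In that order 46.9%, 35.6%, 23.4% and 38.9% of all genes tested were called. Ppy averaged 0.530, 0.141, 2.07 and 0.371 CPM in the 4 groups, and Neurod1 0.464, 0.861, 1.15 and 0.529 CPM. The duct marker list summed to 62.4 to 74.5 CPM, 41.5 to 53.7 CPM, 99.4 to 115 CPM and 67.8 to 85.7 CPM in that order, led by the transcription factor gene Onecut1. Of its 7 tested genes 1 was higher and 2 lower with Arid1a siRNAs, with or without EGF, and EGF came with 1 higher under Arid1a siRNAs and with 2 higher and 1 lower under control siRNA. With Arid1a siRNAs this is 42.9% called, against 46.9% of all genes with EGF and 38.9% without it. For EGF it is 14.3% under Arid1a siRNAs, against 23.4%, and 42.9% under control siRNA, against 35.6%. The part of the islet and duct markers in the Rab changes was likewise not tested.

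Promoters are shown of the 5 granule and Rab3-type genes among the 14 Rab genes called higher with Arid1a siRNAs in EGF-treated cells. These promoters were chosen by that call. They are RefSeq windows of 300 bases (build GRCm38.p6), each read 5′ to 3′ along the gene, from 250 bases before the start to 50 after it. Capitals mark matches on either strand to the GC box GGGCGG, the CCAAT box, and the E-boxes CACGTG and CATATG.
Rab27a, first start, chr9:73044560-73044859, plus strand: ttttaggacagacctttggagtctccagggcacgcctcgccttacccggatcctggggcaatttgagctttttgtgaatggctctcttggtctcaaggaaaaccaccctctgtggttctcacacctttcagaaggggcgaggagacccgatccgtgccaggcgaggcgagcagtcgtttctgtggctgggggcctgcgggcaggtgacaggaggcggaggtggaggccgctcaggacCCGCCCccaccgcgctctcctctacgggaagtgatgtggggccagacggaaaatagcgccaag
Rab27a, second start, chr9:73063898-73064197, plus strand: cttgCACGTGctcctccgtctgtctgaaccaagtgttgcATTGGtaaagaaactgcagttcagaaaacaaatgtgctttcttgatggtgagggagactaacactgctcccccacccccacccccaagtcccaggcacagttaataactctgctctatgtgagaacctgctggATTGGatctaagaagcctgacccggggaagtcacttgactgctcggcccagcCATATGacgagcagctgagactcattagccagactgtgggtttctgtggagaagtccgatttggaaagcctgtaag
Rab3d, chr9:21918134-21918433, minus strand: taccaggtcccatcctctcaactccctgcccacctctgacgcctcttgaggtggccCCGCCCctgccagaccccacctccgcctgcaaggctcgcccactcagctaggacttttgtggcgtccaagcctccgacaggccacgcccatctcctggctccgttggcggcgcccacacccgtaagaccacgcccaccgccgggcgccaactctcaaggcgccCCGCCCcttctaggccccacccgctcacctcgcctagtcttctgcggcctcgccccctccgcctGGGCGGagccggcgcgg
Rab3a, first start, chr8:70754453-70754752, plus strand: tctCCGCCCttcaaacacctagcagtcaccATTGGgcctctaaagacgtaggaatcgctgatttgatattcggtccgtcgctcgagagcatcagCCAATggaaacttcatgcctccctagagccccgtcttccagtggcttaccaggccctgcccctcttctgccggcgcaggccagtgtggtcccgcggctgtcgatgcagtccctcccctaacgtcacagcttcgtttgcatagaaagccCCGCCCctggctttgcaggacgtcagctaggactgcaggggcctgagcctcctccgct
Rab3a, second start, chr8:70754852-70755151, plus strand: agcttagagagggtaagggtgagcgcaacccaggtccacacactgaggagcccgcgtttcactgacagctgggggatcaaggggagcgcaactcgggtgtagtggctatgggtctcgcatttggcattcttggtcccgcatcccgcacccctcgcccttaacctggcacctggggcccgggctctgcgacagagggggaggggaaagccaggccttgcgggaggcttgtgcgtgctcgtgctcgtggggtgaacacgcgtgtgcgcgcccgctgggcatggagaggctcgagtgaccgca
Rab3b, chr4:108878820-108879119, plus strand: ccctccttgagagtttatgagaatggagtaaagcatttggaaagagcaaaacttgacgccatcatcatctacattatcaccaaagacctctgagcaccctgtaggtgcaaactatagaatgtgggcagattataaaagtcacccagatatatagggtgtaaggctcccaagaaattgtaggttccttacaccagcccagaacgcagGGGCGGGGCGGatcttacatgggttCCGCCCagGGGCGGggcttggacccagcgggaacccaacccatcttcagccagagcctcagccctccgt
Rab3c, chr13:110280157-110280456, minus strand: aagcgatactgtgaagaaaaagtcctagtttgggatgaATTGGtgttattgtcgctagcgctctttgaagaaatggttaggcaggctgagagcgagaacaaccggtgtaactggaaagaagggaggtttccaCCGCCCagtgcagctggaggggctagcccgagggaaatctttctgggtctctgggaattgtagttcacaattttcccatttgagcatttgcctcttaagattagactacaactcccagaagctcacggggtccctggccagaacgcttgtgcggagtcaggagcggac

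In these 7 windows the only matches that overlap are a pair of GC boxes in Rab3b. The first Rab27a window holds 1 GC box, and the second holds both E-boxes and 2 CCAAT boxes. The Rab3d window holds 3 GC boxes. The first Rab3a window holds 2 CCAAT boxes and 2 GC boxes, and the second holds no match. The Rab3b window holds 4 GC boxes, and the Rab3c window a CCAAT box and a GC box. RefSeq windows were at hand for 44 of the 52 Rab genes, 56 windows in all. A GC box stood in 69.6% of these, against 35.7% of all 32851 windows, and a CCAAT box in 42.9%, against 37.4%. The E-box CACGTG stood in 10.7% against 7.15%, and CATATG in 1.79% (the second Rab27a window) against 3.91%. The AP-1 letters TGANTCA stood in 5.36% of the Rab windows against 7.81%, the ETS letters CCGGAAGT in 3.57% against 3.89%, and the CRE letters TGACGTCA in 1.79% of both. These shares describe letters in a window and say nothing of binding.

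Of the 4 Rab3-type genes, 3 rose with Arid1a siRNAs in each comparison, Rab3a and Rab3c in both, Rab3b with EGF and Rab37 without it. With the granule Rabs they make 8 genes, of which 5 were higher and 0 lower with Arid1a siRNAs in EGF-treated cells and 4 higher and 0 lower without EGF. Of all genes tested 23.7% and 18.8% were higher in these comparisons. The median log2 change of the 8 was 0.61 with EGF and 0.60 without it, and 7 of the 8 had a positive change in each. Rab27b pointed the other way, with log2 changes of -0.21 with EGF and -0.61 without it, neither past the threshold. Without EGF all its libraries with Arid1a siRNAs lay below those with control siRNA. Rab3a, the Rab of synaptic and neuroendocrine vesicles, had 31.2, 26.9 and 25.5 CPM with Arid1a siRNAs and EGF, against 17.2, 17.8 and 15.9 CPM with control siRNA and EGF (log2 change 0.71 ± 0.091 SE, adjusted p = 1.84e-05). It had 25.5, 25.3 and 26.4 CPM with Arid1a siRNAs alone, against 14.9 and 14.1 CPM with control siRNA alone (log2 change 0.82 ± 0.10 SE, adjusted p = 2.79e-05). In both pairs every library with Arid1a siRNAs was the higher. Rab3a shares 29 exonic bases with Mpv17l2 on the other strand, and the library kit does not mark strand.

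Rab3c, a vesicle Rab close to Rab3a, had 38.7, 31.95 and 40.1 CPM with Arid1a siRNAs and EGF, against 19.1, 18.1 and 20.4 CPM with control siRNA and EGF (log2 change 0.95 ± 0.11 SE, adjusted p = 9.86e-06). It had 36.4, 46.2 and 38.7 CPM with Arid1a siRNAs alone, against 22.8 and 26.6 CPM with control siRNA alone (log2 change 0.72 ± 0.12 SE, adjusted p = 0.000355), again with no overlap. EGF lowered Rab3c with control siRNA (log2 change -0.36 ± 0.13 SE, adjusted p = 0.0361), a call that was lost without any 1 of replicates 1 and 2 of control siRNA and EGF and replicate 2 of control siRNA alone (log2 change -0.25 to -0.36, adjusted p = 0.0822 to 0.221). Rab3b, a further relative, had 24 to 86 reads per library and had 6.06, 3.44 and 4.43 CPM with Arid1a siRNAs and EGF, against 2.32, 2.16 and 1.84 CPM with control siRNA and EGF (log2 change 1.14 ± 0.25 SE, adjusted p = 0.00175). With Arid1a siRNAs alone it had 3.54, 2.21 and 4.002 CPM, against 2.43 and 2.08 CPM with control siRNA alone, which did not pass (log2 change 0.47 ± 0.29 SE, adjusted p = 0.214). Rab3b shares 317 exonic bases with 8030443G20Rik on the other strand.

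Rab37, known from mast cell granules, had 20 to 47 reads per library and had 4.01, 2.89 and 1.74 CPM with Arid1a siRNAs alone, against 1.47 and 1.93 CPM with control siRNA alone. These libraries overlapped, and the call (log2 change 0.77 ± 0.29 SE, adjusted p = 0.0453) was lost without any 1 of replicates 1, 2 and 3 of Arid1a siRNAs and EGF, replicates 1 and 2 of Arid1a siRNAs alone, replicates 1 and 3 of control siRNA and EGF and replicates 1 and 2 of control siRNA alone (log2 change 0.53 to 0.96, adjusted p = 0.0502 to 0.27). In EGF-treated cells it had 2.89, 2.63 and 2.84 CPM with Arid1a siRNAs, against 2.03, 1.67 and 2.23 CPM with control siRNA (log2 change 0.51 ± 0.26 SE, adjusted p = 0.119).

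Of 15 Rabs of the endoplasmic reticulum, Golgi and lipid droplets, 4 were higher and 3 lower with Arid1a siRNAs in EGF-treated cells, and 4 higher and 2 lower without EGF. These are 46.7% and 40% called, near the 46.9% and 38.9% of all genes tested. The pair that carries cargo out of the endoplasmic reticulum fell in both comparisons. Rab1b had 216, 238 and 216 CPM with Arid1a siRNAs and EGF, against 298, 298 and 290.2 CPM with control siRNA and EGF (log2 change -0.41 ± 0.061 SE, adjusted p = 8.87e-05). It had 213, 216 and 238 CPM with Arid1a siRNAs alone, against 336 and 302 CPM with control siRNA alone (log2 change -0.52 ± 0.068 SE, adjusted p = 3.52e-05). Its paralog Rab1, named Rab1a in RefSeq, changed by -0.29 and -0.28 on the log2 scale with and without EGF (adjusted p = 0.000243 and 0.000919). Rab2a, which acts between Golgi and endoplasmic reticulum, had log2 changes of -0.064 ± 0.061 SE and -0.16 ± 0.067 SE, which did not pass.

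Rab36, which binds the lysosomal adaptor RILP, had the largest rise of these in EGF-treated cells. It had 22.6, 20.9 and 22.3 CPM with Arid1a siRNAs and EGF, against 9.92, 9.19 and 7.99 CPM with control siRNA and EGF (log2 change 1.28 ± 0.098 SE, adjusted p = 1.48e-07). It had 22.6, 23.3 and 20.97 CPM with Arid1a siRNAs alone, against 13.4 and 12.96 CPM with control siRNA alone (log2 change 0.76 ± 0.10 SE, adjusted p = 5.98e-05). The 6 libraries with Arid1a siRNAs lay at 20.9 to 23.3 CPM whether or not EGF was given, while EGF lowered Rab36 with control siRNA (log2 change -0.54 ± 0.11 SE, adjusted p = 0.00149). The difference between the EGF responses had the lowest adjusted p of any Rab gene and still missed the threshold (interaction log2 change 0.52 ± 0.14 SE, adjusted p = 0.139). Its relative Rab34, also a RILP partner, rose by 0.39 and 0.35 on the log2 scale with and without EGF, and the call without EGF was lost without replicate 2 of control siRNA alone (log2 change 0.30, adjusted p = 0.0568). Rab33a, a Golgi Rab, rose with Arid1a siRNAs in EGF-treated cells (log2 change 0.41 ± 0.11 SE, adjusted p = 0.00591). Rab18, a Rab of lipid droplets and endoplasmic reticulum, rose by 0.31 and 0.16 on the log2 scale, and the call without EGF was lost without any 1 of replicate 1 of Arid1a siRNAs and EGF, replicate 1 of Arid1a siRNAs alone and replicates 1 and 2 of control siRNA alone (log2 change 0.14 to 0.18, adjusted p = 0.0515 to 0.15). Rab30, on Golgi membranes, had 5.69, 6.14 and 3.74 CPM with Arid1a siRNAs alone, against 3.69 and 2.94 CPM with control siRNA alone (log2 change 0.64 ± 0.24 SE, adjusted p = 0.0455). That call rested on 31 to 100 reads per library and was lost without any 1 of replicate 3 of Arid1a siRNAs and EGF, replicates 1 and 2 of Arid1a siRNAs alone, replicate 3 of control siRNA and EGF and replicates 1 and 2 of control siRNA alone (log2 change 0.50 to 0.84, adjusted p = 0.0511 to 0.184).

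Rab43, which sorts receptors out of the endoplasmic reticulum and Golgi, was the Rab gene that EGF raised by the largest log2 change with control siRNA. It had 57.3, 49.6 and 57.7 CPM with Arid1a siRNAs and EGF, against 38.98, 37.9 and 37.3 CPM with Arid1a siRNAs alone (log2 change 0.53 ± 0.091 SE, adjusted p = 0.000754). Under control siRNA it had 79.5, 64.7 and 79.1 CPM with EGF, against 39.4 and 44.5 CPM without (log2 change 0.83 ± 0.099 SE, adjusted p = 1.64e-05). In EGF-treated cells it was lower with Arid1a siRNAs (log2 change -0.44 ± 0.087 SE, adjusted p = 0.000829), and without EGF the change did not pass (log2 change -0.14 ± 0.10 SE, adjusted p = 0.313). The interaction did not pass either (log2 change -0.30 ± 0.13 SE, adjusted p = 0.474). Rab43 shares 3980 exonic bases with the gene model Gm45140 on the same strand, so its reads are uncertain.

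Rab6a, which returns membrane through the Golgi, rose slightly with EGF. It had 109, 102 and 117 CPM with Arid1a siRNAs and EGF, against 102, 94.2 and 91.1 CPM with Arid1a siRNAs alone (log2 change 0.19 ± 0.063 SE, adjusted p = 0.0413). Under control siRNA it had 114, 121 and 124 CPM with EGF, against 102 and 103 CPM without (log2 change 0.22 ± 0.070 SE, adjusted p = 0.0226). The first of these calls was lost without any 1 of replicates 1 and 3 of Arid1a siRNAs and EGF, replicates 2 and 3 of Arid1a siRNAs alone and replicates 2 and 3 of control siRNA and EGF (log2 change 0.14 to 0.19, adjusted p = 0.0516 to 0.197). The second was lost without any 1 of replicates 2 and 3 of control siRNA and EGF and replicates 1 and 2 of control siRNA alone (log2 change 0.20 to 0.23, adjusted p = 0.0557 to 0.106). Rab6a shares 409 exonic bases with Mrpl48 on the other strand.

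Rab6b, its paralog known from neurons, moved the other way. It had 2.96, 3.66 and 3.85 CPM with Arid1a siRNAs and EGF, against 5.41, 6.82 and 6.699 CPM with Arid1a siRNAs alone (log2 change -0.87 ± 0.17 SE, adjusted p = 0.00217). Under control siRNA it had 2.97, 3.15 and 2.61 CPM with EGF, against 5.92 and 4.23 CPM without (log2 change -0.82 ± 0.19 SE, adjusted p = 0.00423). The libraries did not overlap in either pair, and the call with control siRNA was lost without replicate 1 of control siRNA alone (log2 change -0.54, adjusted p = 0.109).

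**Figure D4:**
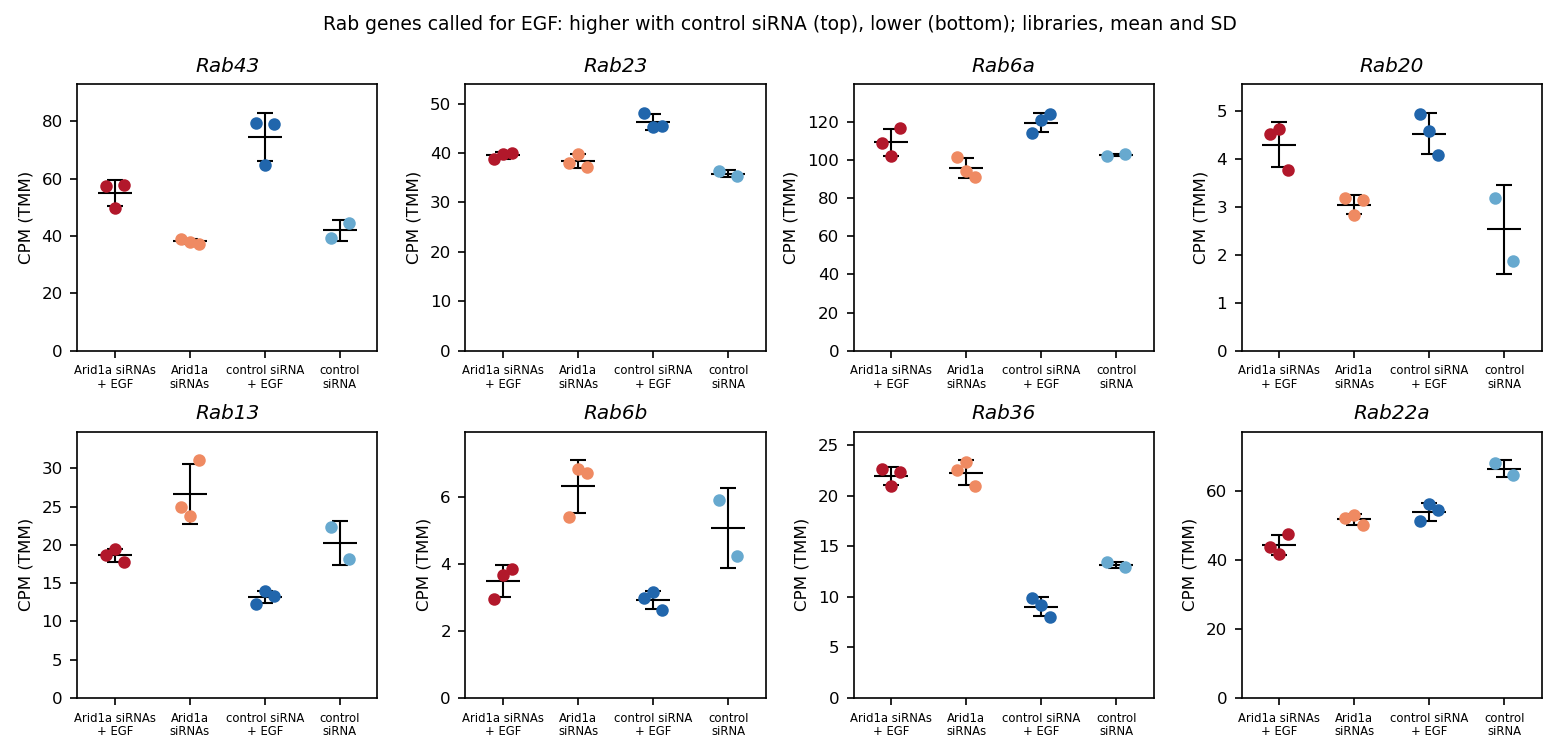
Level in CPM (linear axes that start at 0) of the 4 Rab genes that EGF raised with control siRNA (top) and of 4 that it lowered (bottom), with a point per library and the mean and SD of each group. Rab43 libraries with control siRNA and EGF sit at 64.7 to 79.5 CPM, above those of every other group, and Rab36 is level at 20.9 to 23.3 CPM in the 6 libraries with Arid1a siRNAs.

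Of 8 Rabs of traffic between Golgi and plasma membrane, 4 were lower and 1 higher with Arid1a siRNAs in each comparison, while of all genes tested 23.2% were lower with EGF and 20.1% without it. Rab8b, which with Rab8a carries vesicles to the cell surface, had 13.5, 13.2 and 13.6 CPM with Arid1a siRNAs and EGF, against 23.4, 23.2 and 21.9 CPM with control siRNA and EGF (log2 change -0.77 ± 0.083 SE, adjusted p = 4.05e-06). It had 13.99, 13.3 and 13.7 CPM with Arid1a siRNAs alone, against 22.1 and 24.5 CPM with control siRNA alone (log2 change -0.77 ± 0.090 SE, adjusted p = 1.46e-05). All 6 libraries with Arid1a siRNAs lay between 13.2 and 14.0 CPM. Rab8a changed by -0.22 and -0.33 on the log2 scale with and without EGF, and the call with EGF was lost without replicate 1 of Arid1a siRNAs and EGF (log2 change -0.19, adjusted p = 0.0514).

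Rab10, which acts in exocytosis of glucose transporters and basolateral cargo, had 112, 112 and 111 CPM with Arid1a siRNAs and EGF, against 137, 140.04 and 143 CPM with control siRNA and EGF (log2 change -0.33 ± 0.049 SE, adjusted p = 7.94e-05). It had 109, 104 and 104 CPM with Arid1a siRNAs alone, against 137 and 138 CPM with control siRNA alone (log2 change -0.39 ± 0.054 SE, adjusted p = 6.68e-05). Rab35, which acts in fast recycling and cytokinesis, had 76.9, 85.6 and 75.9 CPM with Arid1a siRNAs and EGF, against 97.2, 104 and 94.7 CPM with control siRNA and EGF (log2 change -0.31 ± 0.065 SE, adjusted p = 0.00117). It had 76.4, 83.3 and 78.3 CPM with Arid1a siRNAs alone, against 112 and 105 CPM with control siRNA alone (log2 change -0.45 ± 0.071 SE, adjusted p = 0.000201). Neither gene had overlapping libraries in either pair, and neither passed the test for EGF.

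Rab13, a Rab of tight junction traffic, was the member of these 8 that rose. It had 18.7, 19.5 and 17.7 CPM with Arid1a siRNAs and EGF, against 12.3, 13.9 and 13.4 CPM with control siRNA and EGF (log2 change 0.49 ± 0.12 SE, adjusted p = 0.00325). It had 24.99, 23.8 and 31.1 CPM with Arid1a siRNAs alone, against 22.3 and 18.2 CPM with control siRNA alone (log2 change 0.38 ± 0.12 SE, adjusted p = 0.023). The call without EGF was lost without any 1 of replicate 3 of Arid1a siRNAs alone and replicate 2 of control siRNA alone (log2 change 0.25 to 0.26, adjusted p = 0.0869 to 0.187). EGF lowered Rab13 with Arid1a siRNAs (log2 change -0.51 ± 0.11 SE, adjusted p = 0.00423) and with control siRNA (log2 change -0.62 ± 0.13 SE, adjusted p = 0.00151). The reads of Rab40b, 4 to 22 per library, could not resolve its log2 changes of 1.02 ± 0.48 SE and 0.80 ± 0.41 SE with and without EGF.

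Of 7 recycling endosome Rabs, 2 were higher and 2 lower with Arid1a siRNAs in EGF-treated cells, and 1 higher and 2 lower without EGF. These are 57.1% and 42.9% called, against 46.9% and 38.9% of all genes tested. Rab15, which slows early endosome traffic and recycling, had 4.09, 4.02 and 4.27 CPM with Arid1a siRNAs and EGF, against 8.84, 6.79 and 8.99 CPM with control siRNA and EGF (log2 change -0.98 ± 0.16 SE, adjusted p = 0.000181). It had 4.103, 3.93 and 3.91 CPM with Arid1a siRNAs alone, against 6.78 and 9.46 CPM with control siRNA alone (log2 change -1.01 ± 0.18 SE, adjusted p = 0.00047). This was the largest fall of any Rab gene in both comparisons. Rab14, of Golgi and recycling endosomes, changed by -0.23 and -0.31 on the log2 scale with and without EGF. Rab4b, of fast recycling, rose by 0.39 and 0.30. Its exons overlap the gene model Gm21983 by 460 bases.

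Rab17, a Rab of polarised epithelial cells, had 10 to 61 reads per library. It had 1.97, 3.29 and 2.34 CPM with Arid1a siRNAs and EGF, against 0.869, 1.36 and 0.769 CPM with control siRNA and EGF (log2 change 1.31 ± 0.37 SE, adjusted p = 0.00916), with no overlap. With Arid1a siRNAs alone it had 2.798, 2.64 and 2.35 CPM, against 3.08 and 1.07 CPM with control siRNA alone, where the replicates lay apart and the test did not pass (log2 change 0.24 ± 0.34 SE, adjusted p = 0.622). EGF lowered it with control siRNA (log2 change -1.11 ± 0.40 SE, adjusted p = 0.0417), but the libraries overlapped and the call was lost without any 1 of replicate 3 of Arid1a siRNAs and EGF, replicates 1 and 2 of Arid1a siRNAs alone, replicates 1 and 3 of control siRNA and EGF and replicate 1 of control siRNA alone (log2 change -0.08 to -1.10, adjusted p = 0.0522 to 0.923). Rab11b, a recycling Rab, had 35.4, 37.1 and 38.2 CPM with Arid1a siRNAs and EGF, against 40.8, 42.2 and 46.4 CPM with Arid1a siRNAs alone (log2 change -0.22 ± 0.074 SE, adjusted p = 0.0405). With control siRNA it had 36.9, 41.4 and 38.7 CPM with EGF, against 48.9 and 46.1 CPM without (log2 change -0.28 ± 0.080 SE, adjusted p = 0.0121). The first of these calls was lost without any 1 of replicates 1, 2 and 3 of Arid1a siRNAs and EGF, replicates 2 and 3 of Arid1a siRNAs alone and replicate 3 of control siRNA and EGF (log2 change -0.17 to -0.26, adjusted p = 0.0519 to 0.141). The second was lost without any 1 of replicate 1 of control siRNA and EGF and replicate 1 of control siRNA alone (log2 change -0.24, adjusted p = 0.054 to 0.0844). Its paralog Rab11a passed in no comparison.

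Early endosome Rabs fell or did not pass with Arid1a siRNAs, with 2 of 7 lower in EGF-treated cells and 3 of 7 without EGF. These are 28.6% and 42.9%, against 23.2% and 20.1% of all genes called lower. Rab31, which moves cargo between Golgi and endosomes, had 44.1, 43.4 and 44.4 CPM with Arid1a siRNAs and EGF, against 60.4, 57.4 and 57.8 CPM with control siRNA and EGF (log2 change -0.41 ± 0.058 SE, adjusted p = 4.96e-05). It had 47.7, 45.1 and 45.6 CPM with Arid1a siRNAs alone, against 60.6 and 58.3 CPM with control siRNA alone (log2 change -0.37 ± 0.064 SE, adjusted p = 0.000426). Rab22a, a relative of Rab31 and Rab5 on early endosomes, fell in all 4 comparisons. It had 43.8, 41.8 and 47.4 CPM with Arid1a siRNAs and EGF, 52.04, 53.1 and 50.1 CPM with Arid1a siRNAs alone, 51.2, 56.3 and 54.3 CPM with control siRNA and EGF and 68.2 and 64.7 CPM with control siRNA alone. Its log2 changes were -0.29 ± 0.067 SE and -0.36 ± 0.073 SE for Arid1a siRNAs with and without EGF (adjusted p = 0.00289 and 0.00134). For EGF they were -0.23 ± 0.068 SE with Arid1a siRNAs and -0.30 ± 0.072 SE with control siRNA (adjusted p = 0.0264 and 0.00468). The call for EGF with Arid1a siRNAs was lost without any 1 of replicates 1 and 2 of Arid1a siRNAs and EGF and replicates 1 and 2 of Arid1a siRNAs alone (log2 change -0.18 to -0.23, adjusted p = 0.0601 to 0.0995).

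Rab20, known from phagosomes, had 26 to 74 reads per library and rose with EGF. It had 4.93, 4.57 and 4.07 CPM with control siRNA and EGF, against 3.19 and 1.86 CPM with control siRNA alone (log2 change 0.80 ± 0.21 SE, adjusted p = 0.00774), and the call was lost without replicate 2 of control siRNA alone (log2 change 0.51, adjusted p = 0.0781). With Arid1a siRNAs it had 4.51, 4.61 and 3.76 CPM with EGF, against 3.17, 2.83 and 3.13 CPM without, which did not overlap and did not pass (log2 change 0.51 ± 0.19 SE, adjusted p = 0.0693). Of the 3 Rab5 genes, which govern entry into early endosomes, Rab5a fell with Arid1a siRNAs without EGF (log2 change -0.29 ± 0.096 SE, adjusted p = 0.0269). That call was lost without any 1 of replicates 1 and 3 of Arid1a siRNAs alone and replicates 1 and 2 of control siRNA alone (log2 change -0.19 to -0.31, adjusted p = 0.0636 to 0.105). Rab5b fell with EGF in control siRNA cells (log2 change -0.29 ± 0.078 SE, adjusted p = 0.00943), a call lost without replicate 2 of control siRNA alone (log2 change -0.26, adjusted p = 0.0532). Rab5c, the highest of them in FPKM, passed in no comparison.

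Of 4 late endosome Rabs, 2 were higher with Arid1a siRNAs in EGF-treated cells and 0 were called in the other comparisons. The 2 are 50% of the 4, against 46.9% of all genes called there in either direction and 23.7% called higher. Rab24, linked to autophagy, was higher with Arid1a siRNAs in EGF-treated cells (log2 change 0.26 ± 0.075 SE, adjusted p = 0.0103), a call lost without replicate 3 of control siRNA and EGF (log2 change 0.20, adjusted p = 0.0575). It shares 830 exonic bases with Prelid1 on the other strand. Rab7l1, named Rab29 in RefSeq and a partner of the kinase LRRK2, was also higher there (log2 change 0.46 ± 0.16 SE, adjusted p = 0.0286), a call lost without any 1 of replicate 2 of Arid1a siRNAs and EGF and replicates 1 and 3 of control siRNA and EGF (log2 change 0.32 to 0.42, adjusted p = 0.0839 to 0.141). With the replicate number as a block over all libraries its adjusted p was 0.0538.

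Rab32, a Rab of lysosome-related organelles such as melanosomes, had 18 to 71 reads per library. It had 2.705, 1.54 and 1.57 CPM with Arid1a siRNAs alone, against 3.59 and 3.15 CPM with control siRNA alone (log2 change -0.85 ± 0.31 SE, adjusted p = 0.0433). That call was lost without any 1 of replicates 1 and 3 of Arid1a siRNAs and EGF, replicates 2 and 3 of Arid1a siRNAs alone, replicate 1 of control siRNA and EGF and replicates 1 and 2 of control siRNA alone (log2 change -0.66 to -0.93, adjusted p = 0.0553 to 0.194). With EGF it had 1.76, 1.54 and 1.84 CPM with Arid1a siRNAs, against 2.82, 3.82 and 1.54 CPM with control siRNA, where the libraries overlapped (log2 change -0.70 ± 0.30 SE, adjusted p = 0.0704).

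Rab23, which restrains Hedgehog signalling and acts at the cilium, rose with EGF in control siRNA cells. It had 48.1, 45.3 and 45.4 CPM with control siRNA and EGF, against 36.4 and 35.3 CPM with control siRNA alone (log2 change 0.37 ± 0.070 SE, adjusted p = 0.000873). With Arid1a siRNAs it had 38.7, 39.8 and 39.98 CPM with EGF, against 38.1, 39.9 and 37.2 CPM without (log2 change 0.039 ± 0.064 SE, adjusted p = 0.717). In EGF-treated cells it was lower with Arid1a siRNAs (log2 change -0.23 ± 0.063 SE, adjusted p = 0.00786). The difference between the EGF responses did not pass (interaction log2 change -0.33 ± 0.095 SE, adjusted p = 0.16). Rab28, also of the cilium, fell with Arid1a siRNAs without EGF (log2 change -0.36 ± 0.067 SE, adjusted p = 0.000682) and with it (log2 change -0.16 ± 0.061 SE, adjusted p = 0.0428). The call with EGF was lost without any 1 of replicates 1, 2 and 3 of Arid1a siRNAs and EGF, replicates 1 and 2 of Arid1a siRNAs alone, replicates 1, 2 and 3 of control siRNA and EGF and replicate 1 of control siRNA alone (log2 change -0.14 to -0.18, adjusted p = 0.0524 to 0.126), and its adjusted p was 0.0544 with the replicate number as a block over all libraries.

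The 2 comparisons for Arid1a siRNAs share no library. Of the Rab genes, 19 were called in the same direction in both, 8 higher and 11 lower, and 0 in opposite directions. That is 70.4% of the 27 called with EGF and 82.6% of the 23 called without it, against 67.1% and 80.9% for all genes tested. The sign of the fitted change was the same for 49 of 52 Rab genes (94.2%), against 83.3% of all genes. The 2 comparisons for EGF also share no library. There 7 Rab genes were called in the same direction, 2 higher and 5 lower, which is 87.5% of the 8 called with Arid1a siRNAs and 53.8% of the 13 called with control siRNA, against 85.3% and 56.1% for all genes. The sign was the same for 38 of 52 Rab genes (73.1%), against 82.2% of all genes.

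**Figure D5:**
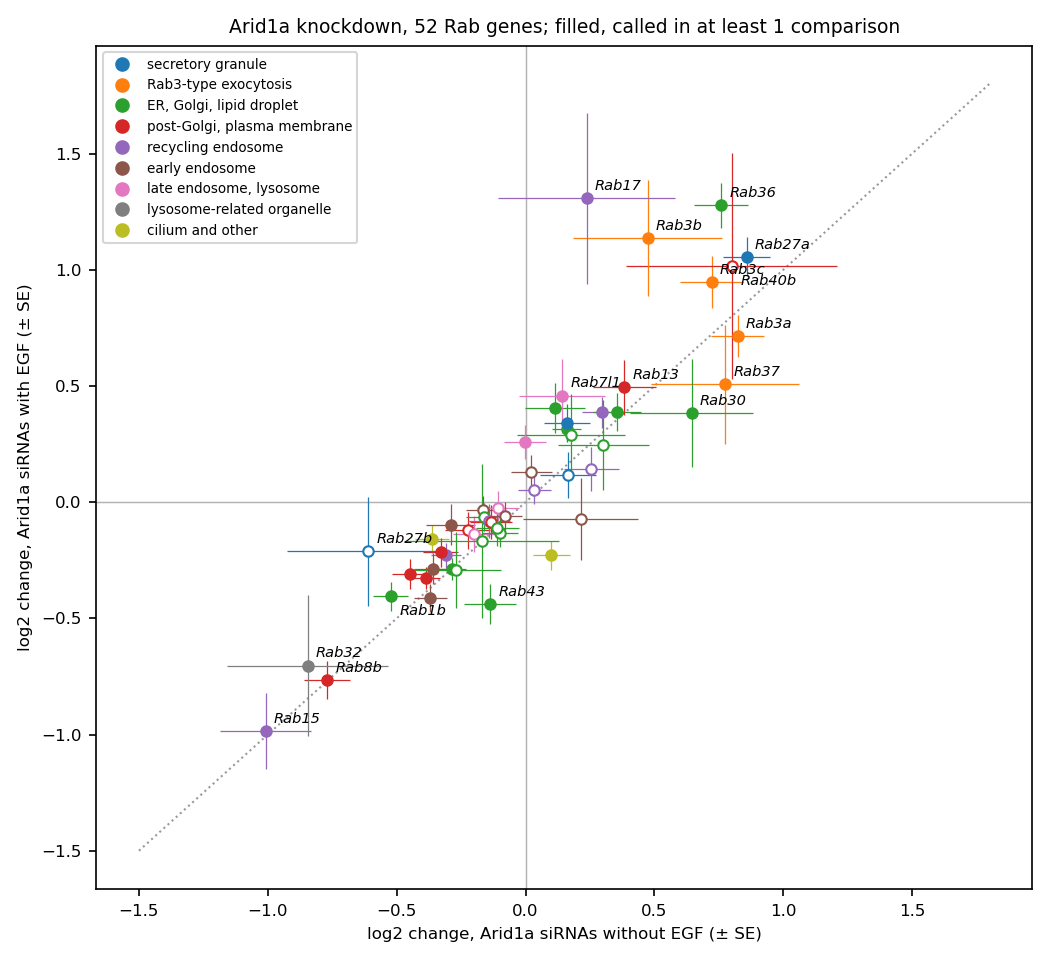
Fitted log2 change (± SE) of the 52 Rab genes for Arid1a siRNAs with EGF (y axis) against that without EGF (x axis), coloured by role, with filled points for genes called in at least 1 of these comparisons and a dotted line where both are equal. Rab27a, Rab36, Rab3a and Rab3c lie at the upper right, Rab15 and Rab8b at the lower left, and 49 of the 52 have the same sign on both axes.

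No Rab gene passed the test that its response to EGF differed between the siRNAs. By edgeR 0 of 52 were called, against 0.944% of all genes tested, 0.562% higher and 0.382% lower. By DESeq2 0 were called, against 1.48% of all genes given an adjusted p. At an unadjusted p under 0.05 edgeR gave 5 (Rab23, Rab24, Rab28, Rab36 and Rab43) and DESeq2 3 (Rab23, Rab36 and Rab43). The share of all genes at that unadjusted threshold was not counted, so these genes are not set apart from the background. The lowest adjusted p was 0.139, for Rab36.

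Genes that carry, switch and read Rab proteins were counted from fixed lists beside the same background of 46.9% and 38.9% for Arid1a siRNAs with and without EGF, and 23.4% and 35.6% for EGF with Arid1a and control siRNA. Of 8 genes that prenylate or carry Rabs, 3 were higher and 2 lower with Arid1a siRNAs in EGF-treated cells, and 2 higher and 1 lower without EGF. These are 62.5% and 37.5% called. EGF came with 2 higher and 1 lower with either siRNA (37.5% called in each). Rabac1, a prenylated Rab acceptor of the Golgi, had 108, 131 and 102 CPM with Arid1a siRNAs and EGF, against 67.6, 73.6 and 61.95 CPM with control siRNA and EGF (log2 change 0.74 ± 0.11 SE, adjusted p = 9.43e-05). Without EGF it had 119, 110.02 and 129.98 CPM with Arid1a siRNAs, against 90.97 and 71.1 CPM with control siRNA (log2 change 0.56 ± 0.12 SE, adjusted p = 0.00277). Gdi2, a GDP dissociation inhibitor, was lower with Arid1a siRNAs (log2 changes -0.28 and -0.20 with and without EGF). Rabggtb, the catalytic subunit of the enzyme that prenylates Rabs, rose with EGF by 0.29 with Arid1a siRNAs and 0.42 with control siRNA.

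Of 40 tested GEFs, 12 were higher and 6 lower with Arid1a siRNAs in EGF-treated cells, and 7 higher and 8 lower without EGF. These are 45% and 37.5% called, against 46.9% and 38.9% of all genes. Mon1b, of the Rab7 exchange factor, and Rab3ip, the Rab8 exchange factor Rabin8, fell in both. Their log2 changes with and without EGF were -0.51 and -0.58 for Mon1b and -0.34 and -0.38 for Rab3ip. Sbf1 rose by 0.45 and 0.34. With Arid1a siRNAs EGF came with 2 higher and 4 lower (15% called, against 23.4% of all genes). With control siRNA it came with 3 higher and 11 lower (35%, against 35.6%). Rab3il1, the exchange factor GRAB, had the largest of these. It had 26.1, 26.6 and 23.8 CPM with Arid1a siRNAs and EGF, against 45.8, 48.04 and 49.5 CPM with Arid1a siRNAs alone (log2 change -0.90 ± 0.073 SE, adjusted p = 8.36e-07). With control siRNA it had 19.8, 21.3 and 22.2 CPM with EGF, against 56.5 and 56.5 CPM without (log2 change -1.42 ± 0.079 SE, adjusted p = 8.4e-09). The fall with EGF was smaller with Arid1a siRNAs by the test of the difference (interaction log2 change 0.52 ± 0.11 SE, adjusted p = 0.0389), and leaving out 1 library ended that call in 9 of 11 fits (adjusted p up to 0.129).

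Of 35 GAPs, 11 were higher and 6 lower with Arid1a siRNAs in EGF-treated cells, and 6 higher and 4 lower without EGF. Called were thus 48.6% and 28.6%, against 46.9% and 38.9% of all genes. Sgsm2 rose by 0.69 and 0.63 on the log2 scale, while its relative Sgsm1 fell by 0.58 and 0.42. With Arid1a siRNAs EGF came with 0 higher and 3 lower (8.57% called, against 23.4% of all genes). With control siRNA it came with 2 higher and 7 lower (25.7%, against 35.6%). Tbc1d8 changed by -0.68 and -0.70. Tbc1d4, the Rab10 GAP that insulin signalling restrains, rose with EGF in control siRNA cells (log2 change 0.56 ± 0.11 SE, adjusted p = 0.00121) and was lower with Arid1a siRNAs in EGF-treated cells (log2 change -0.58 ± 0.10 SE, adjusted p = 0.000285).

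Effectors of Rab3 and Rab27 moved in both directions. Of 11 tested, 2 were higher and 2 lower with Arid1a siRNAs, with or without EGF (36.4% called, against 46.9% and 38.9% of all genes). With EGF in Arid1a siRNA cells 2 were lower and 2 higher (36.4%, against 23.4%). EGF with control siRNA gave 2 higher and 3 lower (45.5%, against 35.6%). Rims2, an active zone scaffold that binds Rab3, had 63.04, 58.2 and 64.6 CPM with Arid1a siRNAs and EGF, against 117, 119.7 and 111 CPM with control siRNA and EGF (log2 change -0.90 ± 0.058 SE, adjusted p = 2.95e-08). It had 71.4, 76.5 and 74.2 CPM with Arid1a siRNAs alone, against 165 and 161 CPM with control siRNA alone (log2 change -1.14 ± 0.062 SE, adjusted p = 2.7e-08). Rph3al (Noc2), an effector needed for regulated exocytosis in exocrine cells, went the other way. It had 84.1, 79.6 and 80.96 CPM with Arid1a siRNAs and EGF, against 51.4, 50.2 and 48.4 CPM with control siRNA and EGF (log2 change 0.70 ± 0.068 SE, adjusted p = 1.38e-06). It had 65.8, 63.8 and 55.9 CPM with Arid1a siRNAs alone, against 38.3 and 35.6 CPM with control siRNA alone (log2 change 0.74 ± 0.079 SE, adjusted p = 6.35e-06). Sytl4 (granuphilin), a Rab27 effector, fell with EGF. It had 7.26, 8.56 and 8.11 CPM with Arid1a siRNAs and EGF, against 14.3, 15.7 and 14.6 CPM with Arid1a siRNAs alone (log2 change -0.90 ± 0.14 SE, adjusted p = 0.000352). It had 3.48, 4.01 and 5.996 CPM with control siRNA and EGF, against 12.4 and 12.5 CPM with control siRNA alone (log2 change -1.48 ± 0.17 SE, adjusted p = 9.04e-06). Unc13d (Munc13-4), another Rab27 effector, was higher with Arid1a siRNAs without EGF (log2 change 0.62 ± 0.19 SE, adjusted p = 0.0186).

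The granule fusion machinery of 21 genes (SNARE proteins, synaptotagmins and their partners) had 11 higher and 7 lower with Arid1a siRNAs in EGF-treated cells, and 8 higher and 5 lower without EGF. Called were 85.7% with EGF and 61.9% without it, against 46.9% and 38.9% of all genes. With Arid1a siRNAs EGF came with 0 higher and 2 lower (9.52% called, against 23.4% of all genes). With control siRNA it came with 2 higher and 4 lower (28.6%, against 35.6%). Nsf, the ATPase that takes SNARE complexes apart, had 47.6, 45.04 and 51.4 CPM with Arid1a siRNAs and EGF, against 79.2, 76.6 and 81.2 CPM with control siRNA and EGF (log2 change -0.72 ± 0.070 SE, adjusted p = 1.38e-06). It changed by -0.62 ± 0.077 SE on the log2 scale without EGF. Syt6, a synaptotagmin, fell by 0.95 and 0.88 on the log2 scale with and without EGF. Stx2, a syntaxin of acinar apical membranes, rose with Arid1a siRNAs in EGF-treated cells (log2 change 0.71 ± 0.076 SE, adjusted p = 3.49e-06) and fell with EGF in control siRNA cells (log2 change -0.62 ± 0.083 SE, adjusted p = 4.65e-05).

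Effectors of Golgi Rabs had 4 of 11 higher and 3 lower with Arid1a siRNAs in EGF-treated cells, and 3 higher and 1 lower without EGF. These are 63.6% and 36.4% called, against 46.9% and 38.9% of all genes. Kif20a, a kinesin that binds Rab6 and acts in cytokinesis, rose by 0.58 and 0.54 on the log2 scale, and Golga2 by 0.27 and 0.27. EGF gave 2 higher and 1 lower with Arid1a siRNAs (27.3% called, against 23.4% of all genes). With control siRNA it gave 3 higher and 1 lower (36.4%, against 35.6%). The tether Uso1 (p115), a Rab1 effector, rose by 0.21 and 0.30. Effectors of endosome Rabs had 8 of 28 higher and 4 lower with Arid1a siRNAs in EGF-treated cells, and 5 higher and 3 lower without EGF. Called were thus 42.9% and 28.6%, against the same shares of all genes, 46.9% and 38.9%. EGF gave 2 higher and 4 lower with Arid1a siRNAs (21.4% called, against 23.4% of all genes). With control siRNA it gave 3 higher and 7 lower (35.7%, against 35.6%). Appl2, a Rab5 effector of signalling endosomes, rose with EGF by 0.62 and 0.81. Rab11fip2, a Rab11 effector, fell in all 4 comparisons, by 0.46 and 0.61 with Arid1a siRNAs with and without EGF, and by 0.42 and 0.57 with EGF with Arid1a and control siRNA.

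The Rab genes that passed in none of the 4 comparisons were Rab5c, Rab21, Rab2a, Rab33b, Rab2b, Rab39b, Rab39, Rab26, Rab7, Rab9, Rab40c, Rab12, Rab40b, Rab11a and Rab4a. In the GENCODE annotation exons of 20 of the 52 Rab genes overlap those of another gene, 15 of them on the opposite strand, and for 8 the other gene is listed in the counts. Reads in those stretches cannot be assigned with certainty.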

How the data were processed

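The submitters' processing notes name TopHat2 2.1.1, HTSeq 0.9.1, Cuffnorm 2.2.1.2, Cuffdiff 2.2.1.5 and the build mm9, without roles or settings. The files the authors deposited hold raw read counts per gene symbol for each of the 11 libraries. A further deposited table holds the authors' FPKM values, used here only for levels between genes. It has 3 control columns against 2 control libraries, and these columns were left aside. Polyadenylated RNA was prepared with a kit that does not mark strand, per the labels' protocols.

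The tests used edgeR 4.0.16 (R 4.3.3). The filter filterByExpr, with a minimum count of 10 and a minimum total of 15, kept 13343 genes that hold 99.96% of the reads. A model of 4 group means over all libraries, with TMM factors and robust quasi-likelihood estimates (7 residual degrees of freedom, biological coefficient of variation 7.00%), gave 4 comparisons and the interaction. Tests were two-sided, with Benjamini-Hochberg adjustment over all genes tested and a threshold of 0.05. The fit was tested on simulated data. Alternatives were RLE factors, DESeq2 1.42.0, no filter, the replicate number as a block, only the groups compared, and each library left out.

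The Rab genes, role groups and gene lists were chosen with earlier results of these data known. Named in full are the granule Rabs, the up to 6 largest called rises and falls of each comparison, and of each list the up to 2 genes of smallest p in each direction. A few genes that this rule names are not reported here. Library pairs of a group had a chi-square per degree of freedom of 1.57 to 10.9 over genes with at least 20 reads, where copies would give about 1. The 10.9 was the pair of control siRNA alone, and pairs of the other groups had 1.57 to 9.04. Deviations of same-numbered libraries from their group means correlated at 0.19, 0.377 and 0.162 between Arid1a siRNAs with EGF and control siRNA with EGF. Unlike-numbered libraries there correlated at -0.241 to 0.0975. The numbers were taken to pair those samples in the block fits only, which is an assumption, and the main tests used no pairing. RefSeq promoters are of build GRCm38.p6.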

Additional observations from a re-analysis of the deposited data

Results flagged for a closer look

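The response of Rab3il1, the exchange factor GRAB, to EGF differed between the siRNAs by the test of the difference itself. The interaction was a log2 change of 0.52 ± 0.11 SE, the EGF change with Arid1a siRNAs minus that with control siRNA (edgeR quasi-likelihood test, adjusted p = 0.0389). All 3 libraries with Arid1a siRNAs and EGF were below all 3 with Arid1a siRNAs alone, and all 3 with control siRNA and EGF were below both with control siRNA alone. The call was kept with RLE factors (adjusted p = 0.046), DESeq2 (0.0169) and no filter (0.0464). It was lost with the replicate number as a block (0.118) and in 9 of the 11 fits that left out 1 library. It was kept without replicate 3 of Arid1a siRNAs and EGF (adjusted p = 0.0475) and without replicate 3 of Arid1a siRNAs alone (0.0342). The log2 value ran between 0.471 and 0.555 over these settings. Groups of 3 or fewer libraries were not searched for single libraries that stand apart.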

How the results depend on the processing

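Over the named Rab genes, no log2 change with a call turned its sign under any alternative. Of single-gene values with a call, 694 kept and 87 lost it when 1 library was left out, and under the other settings 352 kept and 30 lost it. Of those without a call, all from the granule Rabs, 1 gained one without 1 library and 153 did not, and 0 of 68 gained one under the other settings. Some calls ended with the replicate block over all libraries (edgeR, adjusted p = 0.0528 to 0.11). These were Rab13, Rab18, Rab30, Rab32, Rab37 and Rab5a for Arid1a siRNAs without EGF, and Rab28 and Rab7l1 with it. For EGF they were Rab17, Rab3c and Rab6a with control siRNA, and Rab11b, Rab22a and Rab6a with Arid1a siRNAs. Of these, DESeq2 also ended those of Rab17, Rab28, Rab30, Rab32 and Rab37, and that of Rab6a with Arid1a siRNAs. Of all genes tested, 23.4% were called for EGF with Arid1a siRNAs, and 19.6% with the replicate block. Without 1 library of either group that share was 16.7% to 21.6%. For Arid1a siRNAs without EGF it was 38.9%, 33% with the block and 30.4% with only the groups compared. The count of Rab genes higher with Arid1a siRNAs without EGF was 10, and it was 6 with the replicate block and 6 with only the groups compared. With 1 library left out it ran from 5 to 10 and was lowest without replicate 2 of control siRNA alone. The count lower with EGF in Arid1a siRNA cells was 5, was 3 with the replicate block, and ran from 3 to 5 with 1 library left out. It was 3 without replicate 1, 2 or 3 of Arid1a siRNAs and EGF and without replicate 1 or 2 of Arid1a siRNAs alone. The count higher with EGF in these cells was 3 and ran from 1 to 4, at 1 without replicate 3 of Arid1a siRNAs and EGF or replicate 2 or 3 of Arid1a siRNAs alone. With control siRNA it was 4 and ran from 2 to 4, at 2 without replicate 2 of control siRNA alone. The cause was not tested. In fits without 1 of the 2 libraries of control siRNA alone, the remaining library was assumed to vary like the other groups. With Arid1a siRNAs in EGF-treated cells the numbers were assumed to pair the samples. There the replicate block over all libraries called 25 of 52 Rab genes, against 44% of all genes tested. Within the 2 groups, a fit chosen after seeing the data, it called 33 of 51, against 64.9% of all genes. Among the 33 were all 27 of the unblocked fit. Elsewhere the numbers gave same-number correlations of 0.0755, -0.38 and -0.148 (EGF with Arid1a siRNAs), 0.0456 and 0.385 (knockdown without EGF), and -0.234 and -0.464 (EGF with control siRNA). No scaling moved the median of all genes by 0.1 on the log2 scale. Depth limits Rab27b, Rab37, Rab17, Rab32, Rab39 and Rab40b, whose libraries held 4 to 71 reads. It also limits Rab20, Rab39b and Rab3b, among others, whose libraries held 24 to 86.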
